A study of Mus musculus with 15 samples.

Results

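Collagen chain genes were taken here as the protein-coding mouse genes whose symbol has the form Col, a number, a and a number. There were 44 of them among 32930 genes with a value, 18721 of which are protein-coding. The values come from RNA sequencing of tissue labelled as vascular from C57BL/6 mice at 10 weeks of age, with 5 libraries in each of 3 groups. The NS group is labelled normal (libraries NS 1 to 5), the AngII group hypertension (AngII 6 to 10) and the Lien group hypertension plus Lien (Lien 11 to 15). No group carries a genetic change that the labels name, and they give neither dose nor length of treatment. AngII is short for angiotensin II, a vessel-constricting hormone. Lien is taken to mean liensinine, a lotus seed alkaloid, since the series title names it. The question in that title is whether liensinine lessens remodeling of vessels under angiotensin II through MAPK and TGF-β/Smad signalling, and collagen is a main product of that remodeling. The unit is not named and was read as FPKM, fragment counts corrected for transcript length and for library size. Values were summed here over the transcripts of a gene, and on that reading levels can be set side by side between genes.

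A collagen is a trimer of chains that wind into a triple helix, which needs a glycine in the first place of each triplet of residues. Fibrillar collagens (types I, III and V in vessels) form the banded fibrils that give the wall its tensile strength. Type IV forms the sheet-like network of basement membranes under endothelium and around each smooth muscle cell. Type VI forms beaded filaments between cells and fibrils. The short-chain types VIII and X form hexagonal networks, and type VIII is a product of endothelium and of migrating smooth muscle. The FACIT collagens sit on the surface of fibrils, and the multiplexins, types XV and XVIII, are basement membrane proteoglycans whose C-terminal ends can be cut off as small soluble fragments. In a vessel most fibrillar collagen comes from adventitial fibroblasts and smooth muscle cells, and TGF-β is a strong inducer of types I and III.

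The classes differ in the coding sequence itself, which the choice of the genes by symbol did not use. In the longest coding sequence of each gene, runs of at least 5 glycine codons spaced 3 codons apart were counted. The fibrillar chains of types I, II, III, V and XI had 1 main run of 337 to 344 triplets, and Col24a1 and Col27a1 had one of 216 and 217. In the 6 type IV chains the longest run was 39 to 66 triplets and the helix was broken into 22 to 27 runs. Col6a1 and Col6a2 had a longest run of 87 triplets, and Col8a1, Col8a2 and Col10a1 of 59 or 60. Exons of exactly 54 bases, or 6 triplets, numbered 21 to 33 in the 11 fibrillar genes and 1 to 3 in the 6 type IV genes.

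Gene pairs also lie side by side. The start sites of Col4a1 and Col4a2, which make the α1 and α2 chains of the common type IV trimer, were 21 bases apart on opposite strands of chromosome 8. Those of Col4a3 and Col4a4 were 72 bases apart and those of Col4a5 and Col4a6 were 1309 bases apart, again on opposite strands. Col6a1 and Col6a2 stood 102538 bases apart on the same strand of chromosome 10. Where genes on opposite strands overlap, reads without strand information cannot be assigned, and the labels do not say whether the counting used strand. Col4a1 and Col4a2 overlap each other at their starts, and Col18a1 overlaps Slc19a1 (mean 9.07 FPKM).

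Promoter windows from 250 bases before to 50 bases after the start site were found in RefSeq (GRCm38.p6) for 35 of the 44 genes, 38 windows in all. Those of Col1a2 and Col3a1 are shown because these genes led the fibrillar levels, those of Col4a1 and Col4a2 because they share a start region, and both windows of Col18a1 because its transcripts differed between libraries. Each reads 5′ to 3′ on the strand of the gene, and capitals mark CCAAT or its complement ATTGG and TATAAA or its complement TTTATA. The positions are chr6:4505368-4505667, plus strand for Col1a2, chr1:45311288-45311587, plus strand for Col3a1, chr8:11312777-11313076, minus strand for Col4a1, chr8:11312555-11312854, plus strand for Col4a2, and, on the minus strand, chr10:77166481-77166780 and chr10:77113656-77113955 for the upstream and the downstream window of Col18a1.
Col1a2: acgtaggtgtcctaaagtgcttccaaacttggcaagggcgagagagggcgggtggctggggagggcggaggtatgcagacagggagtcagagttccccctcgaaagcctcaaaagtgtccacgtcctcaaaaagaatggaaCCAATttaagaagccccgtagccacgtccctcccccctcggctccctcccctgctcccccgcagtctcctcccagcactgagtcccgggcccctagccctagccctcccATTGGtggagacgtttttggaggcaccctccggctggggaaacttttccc
Col3a1: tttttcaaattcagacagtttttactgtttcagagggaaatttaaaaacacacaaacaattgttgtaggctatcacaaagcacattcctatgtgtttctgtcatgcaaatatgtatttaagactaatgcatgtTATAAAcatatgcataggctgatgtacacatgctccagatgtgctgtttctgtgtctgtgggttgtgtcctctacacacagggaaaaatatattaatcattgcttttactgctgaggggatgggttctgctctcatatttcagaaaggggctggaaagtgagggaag
Col4a1: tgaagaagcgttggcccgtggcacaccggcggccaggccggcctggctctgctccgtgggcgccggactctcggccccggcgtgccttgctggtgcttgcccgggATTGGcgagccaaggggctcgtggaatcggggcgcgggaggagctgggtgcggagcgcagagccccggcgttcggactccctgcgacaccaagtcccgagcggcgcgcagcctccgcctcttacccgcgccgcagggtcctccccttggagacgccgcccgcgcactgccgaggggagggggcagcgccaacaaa
Col4a2: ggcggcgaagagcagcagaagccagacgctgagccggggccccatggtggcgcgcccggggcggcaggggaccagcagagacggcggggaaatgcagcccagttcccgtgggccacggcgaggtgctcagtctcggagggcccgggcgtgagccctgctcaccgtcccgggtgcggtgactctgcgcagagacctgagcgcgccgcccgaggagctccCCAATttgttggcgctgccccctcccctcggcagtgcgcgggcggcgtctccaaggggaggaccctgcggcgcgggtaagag
Col18a1, upstream: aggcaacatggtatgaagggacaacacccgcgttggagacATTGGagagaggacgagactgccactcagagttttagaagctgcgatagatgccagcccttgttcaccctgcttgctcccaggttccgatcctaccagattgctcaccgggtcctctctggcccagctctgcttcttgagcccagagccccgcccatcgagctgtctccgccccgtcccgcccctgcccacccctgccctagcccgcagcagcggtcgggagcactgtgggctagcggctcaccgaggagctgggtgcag
Col18a1, downstream: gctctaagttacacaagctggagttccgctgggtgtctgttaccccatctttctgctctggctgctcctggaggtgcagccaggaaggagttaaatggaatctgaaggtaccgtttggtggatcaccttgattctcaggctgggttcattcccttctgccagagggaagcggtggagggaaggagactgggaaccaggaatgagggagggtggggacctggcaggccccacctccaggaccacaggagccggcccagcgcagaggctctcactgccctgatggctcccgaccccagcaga
The Col4a1 and Col4a2 windows shared 78 bases, read from opposite strands. The Col1a2 window held 2 CCAAT motifs and the Col3a1 window a TATAAA, and their G and C contents were 61.0% and 37.7%. Read on both strands, CCAAT was in 13 of the 38 collagen windows (34.2%) and in 37.4% of all 32851 windows. TATAAA was in 5 of 38 (13.2%) and in 13.6% of all. The Smad motif CAGACA was in 9 of 38 (23.7%) and in 21% of all, and the palindromic Smad motif GTCTAGAC in 0 of 38 and 0.213% of all. GGGCGG, the core of an Sp1 site, was in 23 of 38 (60.5%) and in 35.7% of all. No motif searched contains another, and a match describes the letters only.

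The libraries differed in marker genes of several tissues, and the part of this in any collagen value was not tested. The smooth muscle gene Acta2 ranged from 188 FPKM in Lien 13 to 1928 in Lien 11, and the fibroblast gene Dcn from 470.1 in Lien 13 to 1525 in Lien 11. The mean of 10 fibroblast markers on log2(FPKM + 1) was 6.29 to 7.09 in NS, 6.59 to 7.08 in AngII and 6.00 to 7.40 in Lien. The mean of 10 smooth muscle markers was 6.13 to 6.90, 5.97 to 7.08 and 4.89 to 7.19. All markers of both lists were detected. All libraries also held the brown fat gene Ucp1, at 143 to 1921 FPKM, and the mean of 6 brown adipocyte markers was 5.37 to 7.59, 6.61 to 7.21 and 4.98 to 7.97. The cardiomyocyte gene Myh6 was at 176, 338 and 146 FPKM in NS 1, NS 5 and AngII 8 and at 0 to 50.1 in the other libraries. The mean of 8 cardiomyocyte markers was 1.00 to 7.39, 0.70 to 6.38 and 0.84 to 4.51, and that of 9 Schwann cell and nerve markers 1.56 to 5.50, 2.55 to 5.21 and 1.31 to 5.39. The skeletal muscle gene Acta1 reached 2717 FPKM in NS 3. The mean of 6 mesothelium markers, all detected in every library, was 1.72 to 2.76 in NS, 0.36 to 2.60 in AngII and 0.56 to 1.99 in Lien, and that of 7 macrophage markers, also all detected, 4.08 to 5.35, 4.97 to 6.04 and 4.79 to 6.53. The extraction note in the labels speaks of the heart, while every sample is labelled vascular tissue. In such bulk tissue, fewer cells of a type and less RNA per cell cannot be told apart. The labels do not say that each library came from its own mouse, so the p-values below measure the spread between libraries.

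Collagen RNA was dominated by 5 genes. Col1a2, Col3a1, Col1a1, Col4a1 and Col4a2 had means of at least 100 FPKM over the 15 libraries. A further 12 genes had means from 5 to 100, 12 from 0.5 to 5, and 15 stood under 0.5. Of the 44 genes, 28 passed the filter of at least 0.5 FPKM in at least 5 libraries and were tested, and 16 did not. The fibrillar class held 49.6% to 77.3% of summed collagen FPKM per library (median 64.6%), basement membrane type IV 12.2% to 31.5% (17.98%), type VI 7.28% to 14.6% (9.00%), multiplexins 1.11% to 7.57% (2.82%) and FACIT collagens 1.57% to 5.48% (2.48%). Short-chain, transmembrane and the remaining collagens each held under 1% in every library.

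**Figure D1:**
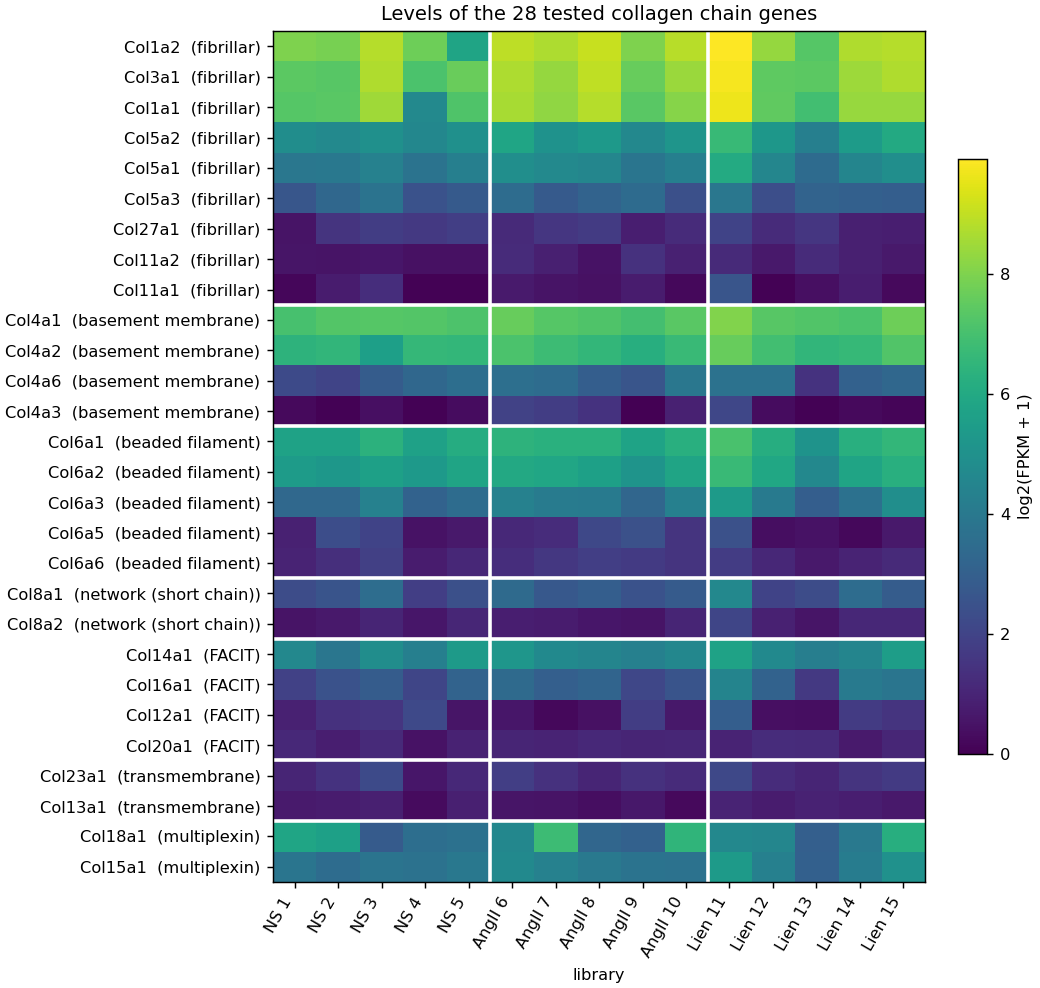
Level of each tested collagen gene as log2(FPKM + 1), by library (columns) and class (rows, white lines between classes and between groups). Col1a2, Col3a1, Col1a1, Col4a1 and Col4a2 are the brightest rows. Lien 11 is the highest library for 21 of the 28 genes, a share that was not counted over all genes.

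Summed over all 44 genes, collagen stood at 1121 ± 363 FPKM in NS, 1699 ± 404 in AngII and 1922 ± 1131 in Lien (mean ± SD, n = 5 libraries each, as throughout). The ranges overlapped: 825 to 1747 in NS, 1025 to 2018 in AngII and 834 to 3778 in Lien. The Lien spread rested on its ends, since Lien 11 was the highest of all 15 libraries for 15 of the 17 genes with a mean of at least 5 FPKM, and Lien 13 was the lowest for 8 of them. The share of all genes highest in Lien 11 or lowest in Lien 13 was not counted, so this may not be particular to collagen. These libraries also had the highest and the lowest fibroblast marker mean, 7.40 and 6.00, and smooth muscle marker mean, 7.19 and 4.89. Lien 11 was highest in the macrophage and chondrocyte marker means too, at 6.53 and 1.77. The part of these cell types in the collagen level was not tested. Lien 11 and NS 3, each the highest of its group in summed collagen, had the lowest brown adipocyte marker means, 4.98 and 5.37 where the other 13 libraries had 6.51 to 7.97, and the part of brown fat in the collagen level was not tested. The comparisons with Lien are also given without Lien 11 and Lien 13.

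**Figure D2:**
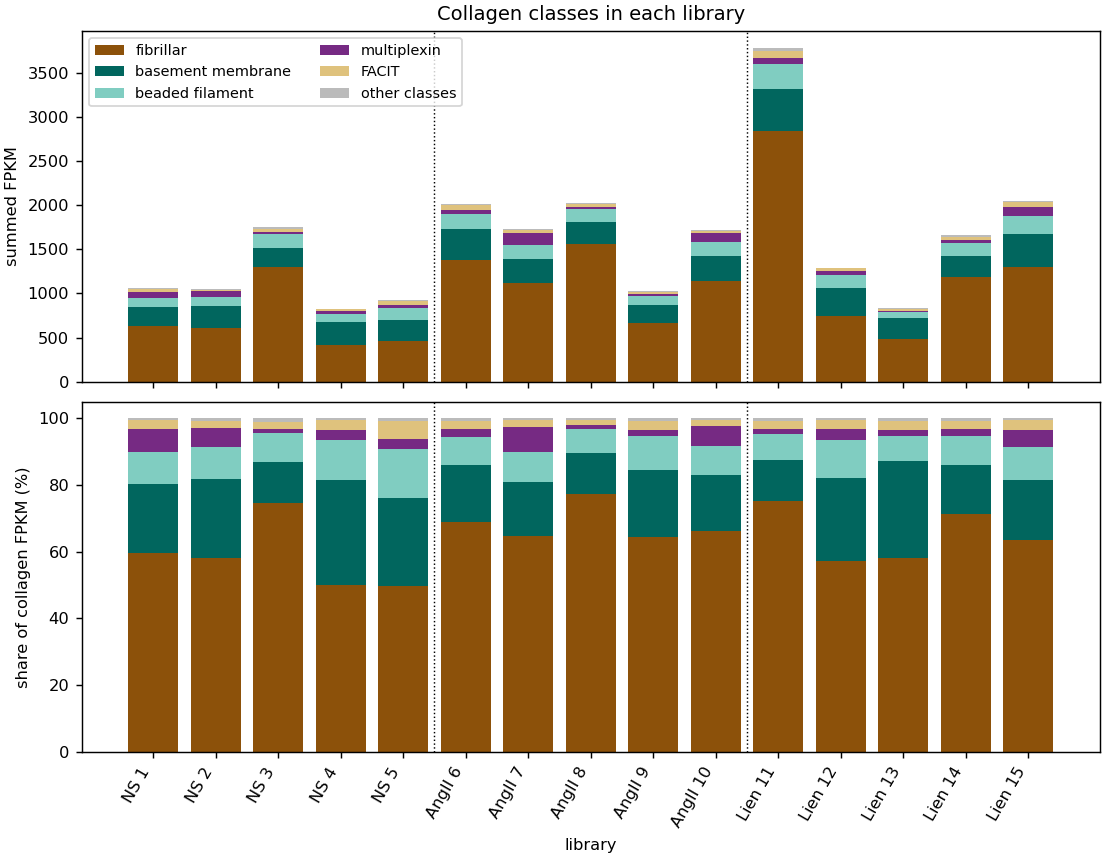
Summed FPKM of the collagen classes in each library (upper panel) and their share of all collagen FPKM in percent (lower panel). Lien 11 reaches 3778 FPKM, NS 4 the lowest total of 825, and the fibrillar share runs from 49.6% to 77.3%.

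Fibrillar collagen summed to 683 ± 359 FPKM in NS (848 ± 394 without NS 4 and NS 5, n = 3, where 1 type I chain is low in each), 1172 ± 339 in AngII and 1309 ± 916 in Lien. Col1a2 (chr6:4504814-4541544, plus strand, GRCm38), the α2 chain of type I, was at 257, 234, 451, 208 and 53.7 FPKM in NS 1 to 5, 489.6, 418, 535, 254 and 460.1 in AngII 6 to 10, and 964, 322, 156, 421 and 447 in Lien 11 to 15. It was lowest in NS 5, and AngII values from 254 to 535 overlapped NS values from 53.7 to 451. Col1a1 (chr11:94936224-94953042, plus strand), the α1 chain that fills the other 2 places of the type I trimer, was at 155, 165, 362, 24.6 and 145 FPKM in NS 1 to 5, 387, 306, 449, 164 and 279 in AngII 6 to 10, and 806, 179, 119.8, 336 and 335 in Lien 11 to 15. NS 4 was far under the other NS libraries and NS 3 above them, and all groups overlapped. Col3a1 (chr1:45311538-45349706, plus strand), which makes the homotrimer of the pliable type III fibrils, was at 170.4, 160.5, 422, 136 and 202 FPKM in NS 1 to 5, 408, 328, 503, 194 and 341 in AngII 6 to 10, and 877, 173, 169, 349 and 419 in Lien 11 to 15. NS 3, at 422 FPKM, lay within the AngII range of 194 to 503, and the other 4 NS libraries were at 136 to 202.

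Type V collagen starts new fibrils and limits their width. Its chain gene Col5a2 was at 27.7, 24.2, 30.9, 23.3 and 30.4 FPKM in NS 1 to 5, 55.4, 32.0, 40.7, 23.4 and 35.1 in AngII 6 to 10, and 101, 36.8, 18.5, 42.5 and 64.1 in Lien 11 to 15. NS libraries kept within 23.3 to 30.9 FPKM, 4 of 5 AngII and 4 of 5 Lien libraries were above that range, AngII 9 was inside it and Lien 13 under it. Col5a1, its partner, averaged 16.0 ± 2.96, 21.5 ± 5.86 and 29.7 ± 21.4 FPKM in NS, AngII and Lien. Col11a2, a fibrillar chain known best from cartilage, was low, at 0.470, 0.439, 0.526, 0.344 and 0.357 FPKM in NS 1 to 5, 1.35, 0.831, 0.391, 1.65 and 0.902 in AngII 6 to 10, and 1.27, 0.589, 1.30, 0.814 and 0.606 in Lien 11 to 15. All 5 Lien libraries were above all 5 NS libraries, and 4 of 5 AngII libraries were. Of 11 chondrocyte markers, 6 were detected in every library, and their mean on log2(FPKM + 1) was 1.15 to 1.38 in NS (median 1.19), 1.09 to 1.61 in AngII (1.38) and 1.14 to 1.77 in Lien (1.46). In that list Cytl1 was at 52.7 to 232 FPKM, Comp at 6.14 to 48.2 and Acan at 0.0732 to 3.05, while Sox9 reached 0.660 at most, and Matn1 and Ucma, with highest values of 0.125 and 0.216, were at 0 in most libraries. The main cartilage collagen Col2a1 reached 0.373 FPKM. The part of cartilage in the Col11a2 level was not tested.

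In the basement membrane class, which summed to 237 ± 20.9 FPKM in NS, 272 ± 52.7 in AngII and 329 ± 94.97 in Lien, the leading pair varied far less than type I. Col4a1 (chr8:11198423-11312826, minus strand) was at 129, 153, 156, 154 and 140.2 FPKM in NS 1 to 5, 195, 154, 144, 124 and 166 in AngII 6 to 10, and 262, 159, 148, 138 and 212 in Lien 11 to 15. Col4a2 (chr8:11312805-11449287, plus strand) was at 83.2, 92.3, 47.3, 96.5 and 93.8 FPKM in NS 1 to 5, 138, 110.0, 93.4, 73.7 and 105 in AngII 6 to 10, and 192, 119.8, 91.0, 100.2 and 148 in Lien 11 to 15. NS 3 was low for Col4a2 and not for Col4a1, and for both genes Lien 11, Lien 15 and AngII 6 were the 3 highest libraries. Col4a6, an X-linked chain of smooth muscle basement membranes, averaged 6.64 ± 3.36, 9.62 ± 3.69 and 8.53 ± 4.32 FPKM. Col4a3, a chain best known from the kidney glomerulus, was at 0.177, 0.0543, 0.318, 0.0306 and 0.268 FPKM in NS 1 to 5, 2.92, 2.47, 1.77, 0 and 0.874 in AngII 6 to 10, and 3.33, 0.253, 0.0280, 0.195 and 0.108 in Lien 11 to 15. It was above 0.8 FPKM in 4 AngII libraries and Lien 11, and at most 0.318 elsewhere.

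Col4a5, whose loss causes X-linked Alport syndrome in humans, did not pass the filter and is named because of its values. It was at 0.175, 0, 0.0558, 0.0685 and 0.176 FPKM in NS 1 to 5, 0.506, 0.00847, 0.00369, 1.78 and 0.103 in AngII 6 to 10, and 0.0627, 29.9, 0.0146, 0.0214 and 0.0310 in Lien 11 to 15. The 29.9 FPKM of Lien 12 belonged to 1 transcript, Col4a5-202, which was at 0 to 0.49 FPKM in the other libraries. Among the 30229 transcript rows without a public identifier, 4 were at 10 FPKM or more in the other 14 libraries and under 10% of their median in Lien 12, and one of these was at 13.8 to 39.4 FPKM elsewhere and 0 in Lien 12. The gene of that row is not known, and whether it is Col4a5 was not tested. This search was run for Lien 12 alone, so how many such rows any other library has is not known.

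Type VI summed to 119 ± 24.2 FPKM in NS, 145 ± 25.0 in AngII and 169 ± 82.2 in Lien. Col6a1, the α1 chain, was at 50.8, 51.5, 81.1, 50.1 and 68.5 FPKM in NS 1 to 5, 84.6, 76.7, 76.6, 52.3 and 75.2 in AngII 6 to 10, and 134, 71.8, 32.8, 76.1 and 94.6 in Lien 11 to 15. Col6a2, the α2 chain, was at 42.4, 37.0, 48.1, 40.6 and 53.9 FPKM in NS 1 to 5, 62.0, 57.7, 48.6, 34.3 and 54.3 in AngII 6 to 10, and 104, 58.7, 23.6, 54.7 and 76.3 in Lien 11 to 15. Both were lowest in Lien 13 and highest in Lien 11. Col6a3, the longest of the main type VI chains, averaged 11.2 ± 4.70, 15.7 ± 4.30 and 20.9 ± 14.1 FPKM. Col6a5, one of the chains that can stand in for it, was at 0.869, 4.14, 2.96, 0.401 and 0.609 FPKM in NS 1 to 5, 1.23, 1.39, 3.40, 4.57 and 1.79 in AngII 6 to 10, and 4.50, 0.296, 0.410, 0.159 and 0.592 in Lien 11 to 15. In Lien it was under 0.6 FPKM except in Lien 11. Col6a6, another such chain, was at 0.968, 1.50, 2.70, 0.677 and 1.13 FPKM in NS 1 to 5, 1.44, 2.04, 2.58, 2.19 and 1.82 in AngII 6 to 10, and 2.43, 1.17, 0.601, 0.982 and 1.30 in Lien 11 to 15, with overlapping groups.

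Among the remaining classes, Col8a1 of the short-chain network was at 4.00, 4.95, 10.7, 2.58 and 4.30 FPKM in NS 1 to 5, 9.76, 5.60, 6.79, 4.60 and 6.24 in AngII 6 to 10, and 23.9, 2.94, 3.96, 10.3 and 6.29 in Lien 11 to 15. Its highest values were in Lien 11, NS 3 and Lien 14, and the groups overlapped. The FACIT chain Col14a1, found on the surface of type I fibrils, was at 23.9, 13.9, 28.4, 18.4 and 40.8 FPKM in NS 1 to 5, 35.9, 25.3, 21.6, 19.1 and 22.9 in AngII 6 to 10, and 50.7, 25.3, 17.9, 21.9 and 44.5 in Lien 11 to 15. Its groups overlapped, with NS 5 above every AngII library. Col16a1, also a FACIT chain, was at 2.76, 4.66, 6.43, 3.20 and 7.94 FPKM in NS 1 to 5, 9.68, 7.07, 8.17, 3.30 and 5.03 in AngII 6 to 10, and 20.99, 7.73, 2.14, 16.1 and 13.3 in Lien 11 to 15. Lien 11, 14 and 15 stood above every NS and AngII library for Col16a1, while Lien 12 and Lien 13 did not. Col13a1, a transmembrane collagen of cell adhesion sites and neuromuscular junctions, was at 0.626, 0.682, 0.827, 0.219 and 0.817 FPKM in NS 1 to 5, 0.477, 0.451, 0.308, 0.567 and 0.185 in AngII 6 to 10, and 0.984, 0.698, 0.926, 0.793 and 0.580 in Lien 11 to 15. Every Lien library was above every AngII library, and the NS libraries lay across both. Col15a1, a multiplexin of capillary and muscle basement membranes, was at 13.6, 10.4, 13.2, 12.2 and 14.5 FPKM in NS 1 to 5, 25.3, 19.5, 14.9, 12.6 and 12.2 in AngII 6 to 10, and 41.8, 18.9, 7.33, 16.7 and 31.4 in Lien 11 to 15. NS spanned 10.4 to 14.5 FPKM and Lien 7.33 to 41.8.

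**Figure D3:**
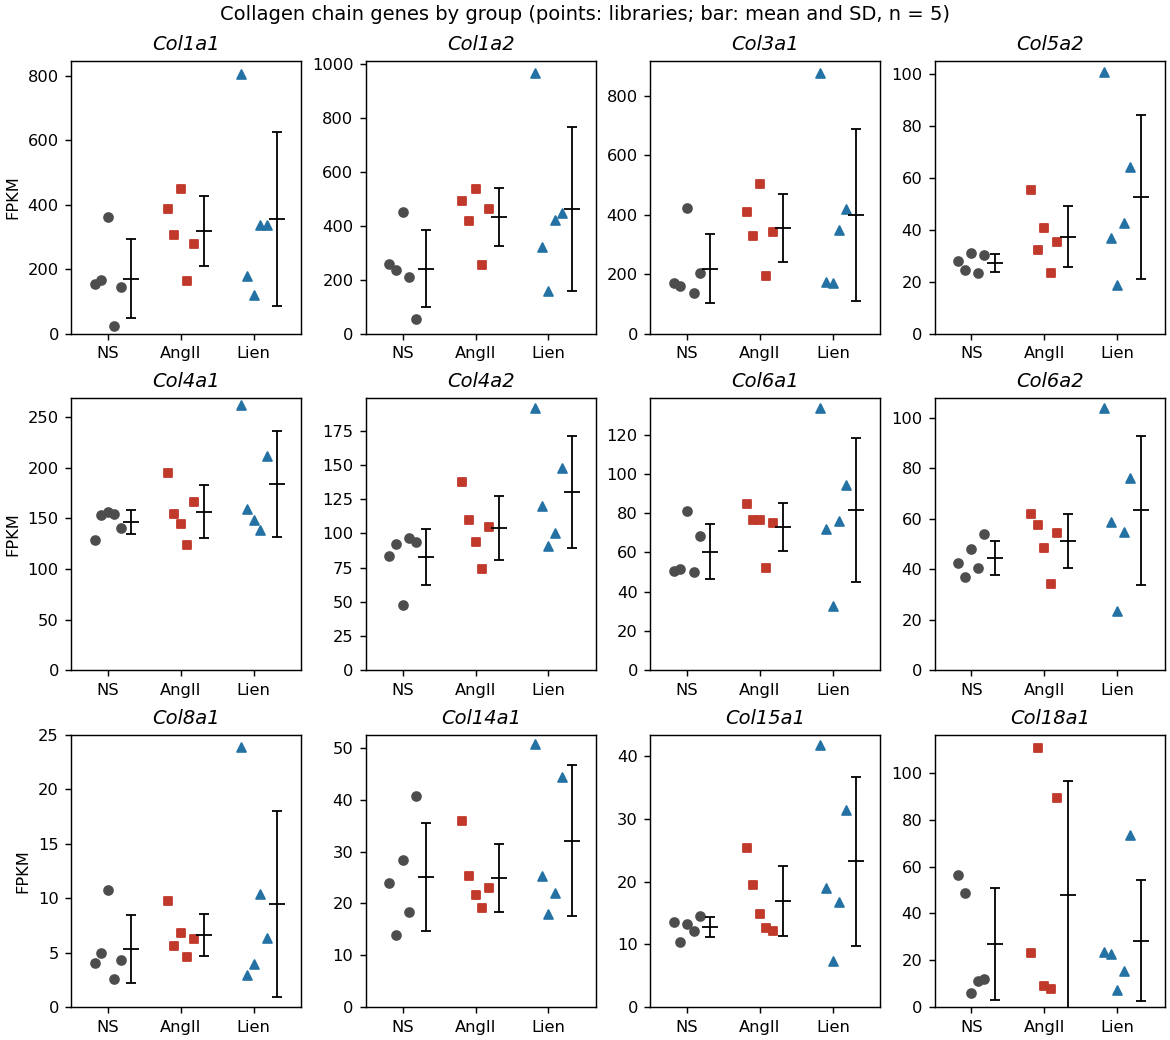
FPKM of 12 collagen genes in each library (points; circles NS, squares AngII, triangles Lien) with the mean and SD of each group (n = 5) to the right of its points, and every axis from 0. Groups overlap in all 12 panels; Col4a1 spans 124 to 262 FPKM, and Col18a1 6.16 to 111.

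Col18a1, the multiplexin whose cleaved end is endostatin, fell into high and low libraries. It was at 56.5, 48.9, 6.16, 11.1 and 11.8 FPKM in NS 1 to 5, 22.9, 111, 8.77, 7.50 and 89.5 in AngII 6 to 10, and 23.5, 22.7, 7.09, 15.2 and 73.4 in Lien 11 to 15. NS 1, NS 2, AngII 7, AngII 10 and Lien 15 stood at 48.9 to 111 FPKM and the other 10 at 6.16 to 23.5, so high libraries occurred in every group. The high values came from 1 transcript, Col18a1-202, at 53.1, 47.2, 108, 87.1 and 68.9 FPKM in those 5 libraries and at 0.14 to 10.7 in the other 10. It starts at base 77166548 of chromosome 10, inside the upstream promoter window given above. Col18a1-201 starts 52602 bases downstream, inside the other window, and ranged from 0.85 FPKM in NS 1 to 20.5 in AngII 6. These start sites are known to yield chains that differ at the N-terminal end. How the deposited values were divided between transcripts is not given in the sources used here.

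The most abundant collagens apart from Col1a2 rested on a single transcript: Col1a1-201 had 97.6% to 99.9% of Col1a1, Col3a1-201 had 96.9% to 99.9% of Col3a1, Col4a1-201 had 98.9% to 99.7% of Col4a1, and Col4a2-201 had 98.1% to 99.6% of Col4a2. Of Col1a2, the transcript Col1a2-201 held 53.5% of the gene in NS 5 and up to 98.9% elsewhere, and a short transcript of 850 bases, Col1a2-205, was at 0 in 6 libraries and at 16.1 to 98.9 FPKM in the other 9. Less abundant genes were also split: Col6a2-201 held 62.4% to 72.7% of Col6a2 and Col6a2-202 23.5% to 33.3%, Col14a1-201 held 62.3% to 79.7% of Col14a1, and Col15a1-202 held from 44.2% of Col15a1 up to 99.9%, with a median of 99.5%.

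Chains of one trimer assemble in fixed proportion, and their ratio within a library does not depend on how that library was scaled. The Col1a1 to Col1a2 ratio was 0.558 to 0.840 in 13 of the 15 libraries, 0.118 in NS 4 and 2.70 in NS 5. In NS 4 it was Col1a1 that was low, at 24.6 FPKM beside 208 of Col1a2 and 136 of Col3a1. In NS 5 it was Col1a2, at 53.7 FPKM beside 145 of Col1a1 and 202 of Col3a1. The Col3a1 to Col1a1 ratio was 0.963 to 1.41 except for 5.55 in NS 4, and the Col4a1 to Col4a2 ratio was 1.33 to 1.68 except for 3.31 in NS 3. The Col6a1 to Col6a2 ratio was 1.20 to 1.69 in all 15 libraries. The ratio of basement membrane to fibrillar chain, Col4a1 to Col1a1, ranged from 0.322 to 1.24 apart from 6.29 in NS 4.

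Rows without a public identifier were searched for ones present in 1 library alone (at least 20 FPKM there and under 10% of that in every other library). NS 4 had 3, at 126, 85.6 and 20.8 FPKM, and NS 5 had 9, the highest at 732, 565 and 258. The other 13 libraries had 4 to 18 such rows each, so their presence was general. Their genes are not known, they are not part of any gene value here, and whether any belongs to type I collagen was not tested. The comparisons with NS are also given without NS 4 and NS 5.

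None of the 5 ratios passed an exact two-sided permutation test in any of the 3 comparisons, adjusted over the 15 tests by Benjamini-Hochberg. At the smallest possible p of 0.00794 a ratio would not pass this adjustment unless others reached it too. The outcome therefore decides nothing about any single ratio. The smallest unadjusted p was 0.0397, for Col4a1 to Col4a2 in Lien against NS (difference of mean log2 ratio −0.36, adjusted p = 0.397, 252 regroupings, smallest possible p 0.00794). Without NS 3 that difference was −0.15. For Col6a1 to Col6a2 the Lien minus AngII difference was −0.14 (exact permutation p = 0.0794, adjusted 0.397). For Col4a1 to Col1a1 the AngII minus NS difference was −1.16 (exact permutation p = 0.0794, adjusted 0.397), and without NS 4 it was −0.54. Without both NS 4 and NS 5 the AngII minus NS and Lien minus NS differences were −0.42 and −0.16 for Col4a1 to Col1a1, −0.42 and −0.52 for Col4a1 to Col4a2, 0.04 and 0.07 for Col1a1 to Col1a2, and 0.02 and −0.12 for Col6a1 to Col6a2, and those of Col3a1 to Col1a1 turned from −0.48 and −0.47 to 0.07 and 0.08. The adjusted exact permutation p without them was 0.595 to 0.897. With only 3 NS libraries the regroupings are too few for any ratio to pass after adjustment over the 15 tests, so this decides nothing.

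**Figure D4:**
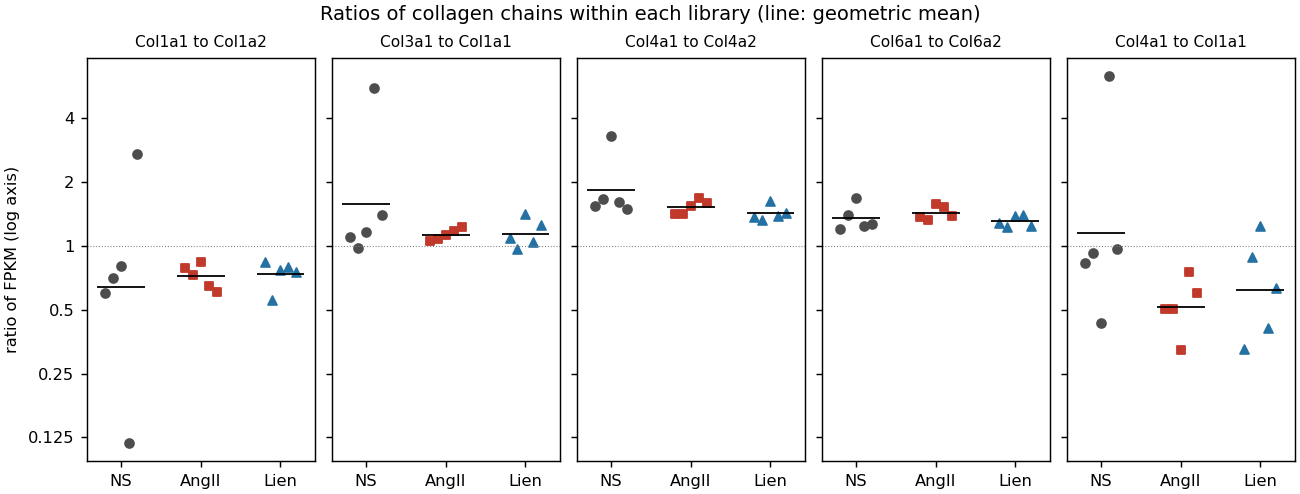
Ratio of FPKM between collagen chains in each library, by group, on a log axis (line, geometric mean of the group; dotted line, a ratio of 1). The Col1a1 to Col1a2 ratio lies at 0.558 to 0.840 apart from NS 4 (0.118) and NS 5 (2.70), and Col6a1 to Col6a2 at 1.20 to 1.69 throughout.

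The first comparison asks what hypertension with angiotensin II changed. Type I and III collagen had higher means in AngII than in NS, and no collagen gene passed the test. The mesothelium marker mean was 0.36 to 0.95 in 4 of 5 AngII libraries and 2.60 in AngII 8, against 1.72 to 2.76 in NS, the macrophage marker mean had medians of 5.56 and 5.08, and their part in the collagen differences was not tested. On log2(FPKM + 1), the AngII minus NS difference was 1.23 (SE 0.61, limma adjusted p = 0.708) for Col1a1, 1.07 (SE 0.52, adjusted p = 0.703) for Col1a2 and 0.76 (SE 0.43, adjusted p = 0.732) for Col3a1. The 95% interval for Col1a1 ran from −0.08 to 2.54, which holds both 0 and a rise of several fold. Without NS 4 alone Col1a1 differed by 0.65, and without NS 5 alone Col1a2 differed by 0.61. With both left out the differences for Col1a1, Col1a2 and Col3a1 were 0.51, 0.48 and 0.58.

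Of the 28 tested collagen genes 0 were called at an adjusted p under 0.05, where 0.077% of all 15586 genes tested were called (limma, 12 genes, 0.0257% higher and 0.0513% lower). At an unadjusted p under 0.05 there were 2 of 28 (7.14%), beside 7.04% of all genes, Col11a2 (0.47, SE 0.17, adjusted p = 0.601) and Col4a3 (1.01, SE 0.40, adjusted p = 0.664). Col4a3 reached 0.5 FPKM only in AngII 6, 7, 8 and 10 and in Lien 11. It thus entered the test mainly through AngII, and its small p is no support for a difference. Col11a2 reached 0.5 FPKM in NS 3 alone of the NS libraries, and in AngII 6, 7, 9 and 10 and every Lien library. It entered the test mainly through AngII and Lien, so its small p is no support either. No collagen gene had AngII libraries all above or all below the NS libraries, as 1.51% and 0.52% of all genes had. Differences were positive for 24 of 28 collagen genes with a median of 0.35, beside 70.1% of all genes with a median of 0.12. The all-gene median went to −0.00192 with quantile normalization and to −0.000238 with libraries scaled to one median, where 19 and 21 of the 28 were positive with medians of 0.21 and 0.20, and relative to it the median collagen difference stayed positive. Without NS 4 and NS 5, 21 of 28 were positive (median 0.22), and with the fibroblast marker mean as a covariate 19 were (median 0.11, with all genes at 0.09).

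By class, the median AngII minus NS difference was 0.39 for the 9 fibrillar genes tested and 0.43 for the 4 type IV genes. It was 0.38 for the 5 type VI, 0.08 for the 4 FACIT and 0.16 for the 2 short-chain genes. Without NS 4 and NS 5 these medians were 0.37, 0.72, 0.25, 0.09 and 0.04. The type IV medians of 0.43 and 0.72 include Col4a3, which passed the filter mainly through AngII, and without it the first was 0.34. Within type IV, Col4a1 and Col4a2 differed by 0.08 (SE 0.18, adjusted p = 0.913) and 0.34 (SE 0.24, adjusted p = 0.759), Col4a6 by 0.52 and Col4a3 by 1.01. Without NS 3 the Col4a2 difference was 0.15, and leaving out single libraries moved that of Col4a1 from 0.0020 without AngII 6 to 0.16 without AngII 9. The difference for Col4a1 turned slightly negative under 3 scalings, at −0.0099, −0.0782 and −0.0152.

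The second comparison asks what Lien added to angiotensin II. Col1a1 averaged 317 ± 109 FPKM in AngII and 355 ± 269 in Lien, and Col3a1 355 ± 114 and 397 ± 289.7. No collagen gene passed the test. The Lien minus AngII difference was −0.06 (SE 0.61, limma adjusted p = 0.977) for Col1a1 and −0.05 (SE 0.43, adjusted p = 0.975) for Col3a1, with 95% intervals of −1.37 to 1.25 and −0.97 to 0.88. Leaving out Lien 11 moved these to −0.43 and −0.40, and leaving out Lien 13 moved them to 0.25 and 0.19. With Lien 11 and Lien 13 both left out they were −0.14 and −0.21. Leaving out AngII 6, AngII 8 or Lien 12 also turned the sign, to 0.03, 0.08 and 0.11 for Col1a1 and to 0.02, 0.09 and 0.18 for Col3a1, so it rested on single libraries. For Col4a1 and Col4a2 the differences were 0.20 (SE 0.18, adjusted p = 0.755) and 0.30 (SE 0.24, adjusted p = 0.744). Without Lien 11 these fell to 0.06 and 0.15, without AngII 9 they were 0.12 and 0.18, and the highest values with 1 library left out were 0.29 and 0.41.

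Of the 28 genes 0 were called, where 0.0128% of all genes were (limma, 2 genes, both higher). At an unadjusted p under 0.05 there was 1 of 28 (3.57%), beside 6.4% of all genes. It was Col13a1 (0.36, SE 0.14, adjusted p = 0.740), which was also the only one whose Lien libraries all stood above the AngII libraries, as in 0.18% of all genes, and none stood all below, as in 0.802%. The next smallest p were those of Col6a5 (−0.86, SE 0.46, adjusted p = 0.740) and Col6a6 (−0.43, SE 0.23, adjusted p = 0.740). Differences were positive for 18 of 28 with a median of 0.16, while 29.8% of all genes were positive with a median of −0.13. The all-gene median moved to 0.02 and 0.04 with quantile normalization and with one median, where 20 and 23 collagen genes were positive with medians of 0.24 and 0.32. Without Lien 11 only 10 of 27 were positive and the median was −0.11, and without Lien 11 and Lien 13 it was 16 of 27 and 0.10. With libraries weighted by their quality it was 14 of 28 and −0.01. Class medians were −0.01 for fibrillar, −0.03 for type IV, 0.04 for type VI, 0.42 for FACIT and 0.29 for the 2 short-chain genes. Without Lien 11 and Lien 13 they were −0.15, 0.11, 0.15, 0.36 and 0.09. The type IV median of −0.03 includes Col4a3, which did not pass the filter without Lien 11.

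The third comparison sets Lien against NS. The smallest p among collagen genes was that of Col4a2, at 82.6 ± 20.3 FPKM in NS and 130.1 ± 40.8 in Lien (log2 difference 0.64, SE 0.24, limma adjusted p = 0.588). Without NS 3 it was 0.45. Col11a2 (0.41, SE 0.17, adjusted p = 0.644) and Col5a2 (0.72, SE 0.34, adjusted p = 0.713) followed. Col1a1 differed by 1.17 (SE 0.61, adjusted p = 0.751), Col3a1 by 0.71 (SE 0.43, adjusted p = 0.822) and Col4a1 by 0.29 (SE 0.18, adjusted p = 0.829). Without NS 4 and NS 5 the Col1a1 and Col3a1 differences were 0.45 and 0.53, and without Lien 11 alone Col5a2 differed by 0.43, Col3a1 by 0.36 and Col4a1 by 0.15. Without Lien 11 and Lien 13 the differences were 1.09 for Col1a1, 0.55 for Col3a1, 0.75 for Col5a2, 0.59 for Col4a2 and 0.23 for Col11a2.

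Of the 28 genes 0 were called, where 0.231% of all genes were (limma, 36 genes, 0.0321% higher and 0.199% lower). At an unadjusted p under 0.05 there were 2 of 28 (7.14%), beside 7.06% of all genes. Col11a2 was the only one with every Lien library above every NS library, as in 0.892% of all genes, and none had them all below, as in 0.911%. Since Col11a2 passed the filter mainly through AngII and Lien, neither its small p nor this separation is support for a difference. Differences were positive for 25 of 28 with a median of 0.36, beside 47.8% of all genes with a median of −0.01. Class medians were 0.62 for fibrillar, 0.32 for type IV, 0.32 for type VI, 0.23 for FACIT and 0.45 for the 2 short-chain genes. Without NS 4 and NS 5 the class medians were 0.38, 0.51, 0.31, 0.29 and 0.33, and 22 of 28 genes were positive with a median of 0.35. Without Lien 11, 21 of 27 were positive with a median of 0.14, and without Lien 11 and Lien 13 21 of 27 with a median of 0.30. With the fibroblast marker mean as a covariate 2 genes were called, both of type V: Col5a1 (0.79, limma adjusted p = 0.0408) and Col5a2 (0.87, adjusted p = 0.0447). In that fit 0.302% of all genes were called, 0.077% higher.

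These comparisons share groups: AngII enters the first and the second and NS the first and the third. Their values for the same gene are therefore set side by side only.

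**Figure D5:**
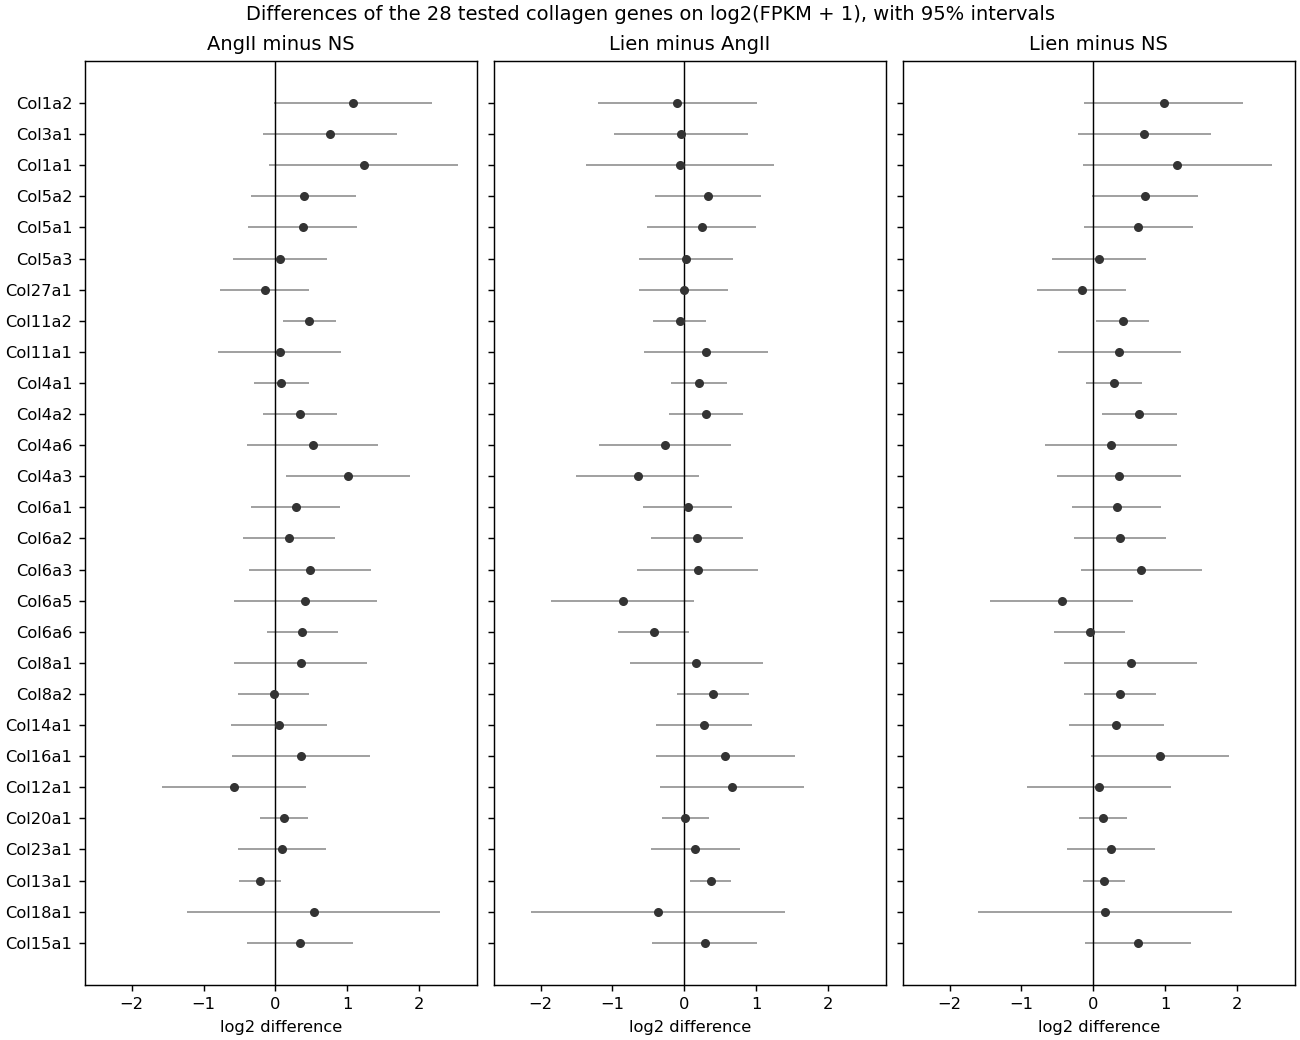
Difference between groups on log2(FPKM + 1) for the 28 tested collagen genes in each comparison, with its 95% interval from limma. The intervals of 26, 27 and 26 genes include 0 in AngII minus NS, Lien minus AngII and Lien minus NS, and no gene passed the adjusted threshold in any of them.

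Genes that process collagen were listed by step, and none of the 52 tested was called in any comparison by limma. Of all genes 0.077%, 0.0128% and 0.231% were called in AngII minus NS, Lien minus AngII and Lien minus NS. In the same order, 70.1%, 29.8% and 47.8% of all genes had positive differences, with medians of 0.12, −0.13 and −0.01. Chaperones and enzymes that modify the chains in the cell (20 of 20 tested) had a median AngII minus NS difference of 0.23 with 19 positive. The smallest p were those of Ppib, the cyclophilin of the prolyl 3-hydroxylase complex (0.39, SE 0.17, adjusted p = 0.693), and Fkbp10, a prolyl isomerase (0.63, SE 0.42, adjusted p = 0.743). In Lien minus AngII their list had a median of 0.05 with 13 positive, led by Colgalt1 (−0.37, SE 0.20) and Sec24d (−0.27, SE 0.16), and in Lien minus NS 0.30 with 17 positive, led by Plod1 (0.34, SE 0.18) and P4ha3 (0.67, SE 0.37). The list of procollagen cleavage and crosslinking (17 of 20 tested) had medians of 0.28, −0.12 and 0.27 in the 3 comparisons. It also holds 5 matrix and fibril-binding proteins that neither cleave nor crosslink collagen, Dcn, Lum, Fmod, Sparc and Fn1, and Dcn and Lum are also among the 10 fibroblast markers. The 12 enzymes and enhancers alone, set apart after the values were seen, had medians of 0.19, −0.11 and 0.29. The list was led by Bmp1, the C-proteinase (0.79, SE 0.41), and Lum (0.87, SE 0.48) in the first, by Dcn (−0.51, SE 0.31) and Adamts14 (−0.33, SE 0.22) in the second, and by Fmod (0.78, SE 0.40) and Loxl1 (0.64, SE 0.36) in the third.

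Collagen receptors (11 tested of 13 listed symbols, of which Gpr56 is an older name of Adgrg1) had medians of 0.11, −0.04 and 0.03. The medians over all genes were 0.12, −0.13 and −0.01. The discoidin receptor Ddr1 was at −1.03 (SE 0.51) and Lair1 at 0.55 (SE 0.37) in AngII minus NS, Ddr2 at −0.40 (SE 0.28) and the integrin chain Itga1 at −0.50 (SE 0.49) in Lien minus AngII, and Itga1 at −0.71 (SE 0.49) and Ddr1 at −0.56 (SE 0.51) in Lien minus NS. Collagenases and gelatinases (4 of 7 tested) had medians of 0.50, −0.24 and 0.33. The lysosomal protease Ctsk was at 0.87 (SE 0.34, unadjusted p = 0.0215, limma adjusted p = 0.636), −0.30 (SE 0.34) and 0.58 (SE 0.34), Mmp2 at 0.72 (SE 0.35) and 0.53 (SE 0.35) in the comparisons with NS, and Mmp9 at −0.36 (SE 0.47) in Lien minus AngII.

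The 16 genes that were not tested had means of 0.0158 to 2.20 FPKM. Apart from Col4a5 they include the cartilage collagens Col2a1, Col9a1, Col9a2, Col9a3 and Col10a1, whose highest value was 1.05 FPKM, of Col9a3 in AngII 9. They also include Col17a1 and Col7a1, the collagens that anchor epidermis to dermis, at 0.238 and 0.460 FPKM at most. Col28a1, related to type VI and known from peripheral nerve, is named for its values: it was at 4.52 FPKM in Lien 11 and at most 0.275 elsewhere. The mean of the Schwann cell and nerve markers was 5.39 in Lien 11, 5.50 in NS 3 and 5.21 in AngII 6, and Col28a1 was at 0.0423 and 0.265 FPKM in the last 2. The part of nerve in the Col28a1 level was not tested. Col11a1, which passed the filter, was likewise at 5.09 FPKM in Lien 11 and at most 1.49 elsewhere. The counting error of these values is not given, since the depth is unknown.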

How the data were processed

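The authors deposited 1 table of 131437 transcripts by 15 libraries. Neither its header nor the labels name the unit, and the deposited values were read as FPKM because they are transcript values with decimals and add up to 477100 to 569500 in a library. Per the labels' protocols, ribosomal RNA was removed from total RNA before library preparation. The submitters' processing notes name limma without a version, and the aligner, the quantifier and the build are each not given in the sources. The depth is unknown: low values fell on even steps that correspond to 1.58e+07 to 1.93e+07 fragments in 14 libraries if the commonest multiple, 4 steps, is 1 fragment, and to 6.3e+07 to 7.72e+07 in all 15 if a step is, so no counting intervals are given.

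Transcripts were matched to GENCODE M21 (GRCm38), which held 99965 of 101208 Ensembl identifiers, and summed per gene. The 30229 rows with an assembly name, 11.0% to 17.0% of the values of a library, stayed out of the gene sums. The test, limma 3.58.1 under R 4.3.3, was run on log2(FPKM + 1) of the 15586 genes that reached 0.5 FPKM in 5 or more libraries. The fit held the 3 group means over 15 libraries (12 residual degrees of freedom, empirical Bayes with trend and robust options), two-sided, and a call needed an adjusted p under 0.05 (Benjamini-Hochberg over all genes in each comparison). A fold on this scale is understated for low genes. Ratios were compared by exact permutation tests with scipy 1.17.1. Other steps used Python 3.11.15 with numpy 2.4.6, pandas 2.3.3 and, for figures, matplotlib 3.10.9.

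Values in every library are given for the leading 2 genes of each class with a mean of at least 5 FPKM, for the genes in the ratios and for the 3 smallest p in each comparison. Col4a5 and Col28a1 were added, and Col5a1, Col11a1 and others summarised, after their values were seen. The glycine repeat was counted in GENCODE coding sequences. The collagen genes, the process and marker lists, and the tests were chosen with earlier results of these data known. Alternatives covered the pseudocount, the filter, 3 scalings, the variance model, library weights, the groups in the fit, the transcripts summed, 4 marker covariates and each library left out. Leaving out NS 4 and NS 5, or Lien 11 and Lien 13, was chosen after seeing the data. The 5 libraries of a group may be technical replicates, since the labels do not say.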

Additional observations from a re-analysis of the deposited data

Results flagged for a closer look

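Within a group of 5 libraries, a value was marked when its gap to the nearest other exceeded 71% of the group's range (Dixon's 95% limit). Of 72 groups of values, 10 were marked, where chance marks about 5% of independent groups of normal values. The values here were unlogged, and the ratios and the sum share genes with the single values. The marks are thus not independent, and their number cannot be set against 5%. NS 3 had Col3a1 at 422 FPKM (136 to 202 in the other NS libraries), all collagen chains summed to 1747 FPKM (825 to 1056), and Col4a2 at 47.3 FPKM (83.2 to 96.5), which gave a Col4a1 to Col4a2 ratio of 3.31 (1.49 to 1.66). NS 4 had a Col3a1 to Col1a1 ratio of 5.55 (0.972 to 1.40) and a Col4a1 to Col1a1 ratio of 6.29 (0.432 to 0.969). NS 5 had a Col1a1 to Col1a2 ratio of 2.70 (0.118 to 0.803). Lien 11 had Col4a3 at 3.33 FPKM (0.0280 to 0.253 in the other Lien libraries) and Col6a5 at 4.50 FPKM (0.159 to 0.592). Lien 15 had Col18a1 at 73.4 FPKM (7.09 to 23.5). The cause of these values was not tested.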

How the results depend on the processing

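No collagen gene was called in AngII minus NS or Lien minus AngII under any alternative run, and in Lien minus NS the count moved from 0 to 2 only with fibroblast markers as a covariate. Of the single collagen genes, the Col4a1 difference in AngII minus NS turned to −0.0099 with quantile normalization, −0.0782 with libraries scaled to one median, −0.0152 with nuclear protein-coding scaling, −0.0336 with cardiomyocyte and −0.0029 with fibroblast markers as a covariate. In Lien minus AngII, Col1a1 turned to 0.174 with one median, 0.515 with nerve, 0.652 with fibroblast and 0.0634 with smooth muscle markers, and Col3a1 to 0.188 with one median, 0.311 with nerve, 0.00101 with cardiomyocyte, 0.456 with fibroblast and 0.0600 with smooth muscle markers. With 1 library left out at a time these differences ranged from −0.43 to 0.25 for Col1a1 and from −0.40 to 0.19 for Col3a1. The Col1a1 to Col1a2 ratio then ranged from −0.449 to 0.679 in AngII minus NS, −0.0264 to 0.133 in Lien minus AngII and −0.415 to 0.714 in Lien minus NS. Without NS 4 and NS 5 the Col3a1 to Col1a1 ratio difference turned to 0.0684 in AngII minus NS and 0.0826 in Lien minus NS. With 1 library left out it ranged from −0.0637 to 0.0748 in Lien minus AngII and the Col6a1 to Col6a2 ratio from −0.0878 to 0.0355 in Lien minus NS. The cause was not tested. No paired analysis was possible because the groups share no replicate number. With 5 libraries a group and this spread, the intervals for type I and III collagen hold 0 and changes of about 2-fold or more. Those for Col1a1 reached log2 differences of 2.54 in AngII minus NS and 2.48 in Lien minus NS. The depth behind low genes is unknown.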
